A study of Homo sapiens with 9 samples.

Results

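The regions described here are accessible sites at the start sites of long non-coding RNA (lncRNA) genes that lie away from coding promoters. FAIRE-seq, which enriches DNA free of nucleosomes, was performed on Jurkat cells, 1 clonal line of a human T cell leukaemia, and each list of peaks gives the accessible sites of 1 library. The peaks of 4 lists on chromosomes 1 to 22, X and Y were merged into 40703 regions, with overlapping or touching peaks joined. Of these regions, 1134 had a mid-point within 1 kb of the transcription start site (TSS) of a lncRNA gene and more than 5 kb from the TSS of every protein-coding gene, in the GENCODE release 44 annotation of GRCh37. These 1134 lncRNA promoter regions were named by the lncRNA with the nearest TSS and belong to 1049 genes.

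By their labels, the lists come from non-stimulated (NS) cells and from stimulus-withdrawn (SW) cells, each pre-treated with DMSO, the solvent, or with 15 µM rottlerin for 1 h. SW cells had been activated with phorbol ester (PMA) and calcium ionophore, by the labels for 4 h, washed, and rested for 1 day. The culture methods of the study state a shorter stimulation. Rottlerin is a kinase inhibitor that has been used against protein kinase C, which PMA activates. All libraries come from the same wild-type line, and the total input DNA served as the shared control of the peak calls. The other 5 of the 9 samples were not analysed here.

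The identity of the lists must be read with care. The methods of the study describe peak calls on DMSO samples only, and pool those of NS cells, of stimulated cells, of SW cells and of re-stimulated cells. All peaks of the 4 lists, those on unplaced contigs included, merged into 40731 regions. That is also the size of the pooled set the study describes. The treatment behind the 3 lists other than NS DMSO is therefore in doubt, and each list is called by its label below with no more meant than that. Each label stands for 1 library, so no difference between lists could be set against a spread between replicates, no p-value is given, and every comparison describes these libraries only. Depth is unknown from a peak list. A region without a peak was not called at the depth of that library, and the lists differ in length, with 18977 peaks for NS DMSO, 20132 for SW DMSO, 23835 for NS rottlerin and 30409 for SW rottlerin. Intervals are 95% Wilson intervals and cover counting error alone. Of 10 T cell marker genes, 9 had a peak within 1 kb of a TSS in at least 1 list and 5 had one in all 4 lists. None of the 15 markers of B, myeloid and erythroid cells had one in any list.

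lncRNA genes are transcribed by RNA polymerase II and make transcripts with little or no coding capacity. Some act in the nucleus, such as MALAT1 of the nuclear speckles and NEAT1, the scaffold of paraspeckles, and others serve as host genes from which microRNAs or small nucleolar RNAs are cut. Their promoters are open chromatin like those of coding genes, but fewer of them lie in CpG islands, and many are used in few cell types. AP1, the dimer of FOS and JUN proteins, is activated by PMA in T cells. The E-box CACCTG can be bound by E proteins such as E2A and by repressors of the ZEB and SNAIL families.

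The sequences that carry the main patterns are given first. Each is the central 300 bp of a merged region, read from GRCh37 (Hg19) on the plus strand. The first 4 contain the AP1 consensus TGANTCA, in capitals. Those of ENSG00000248884, VIM-AS1 and ENSG00000284977 had a peak in every list but NS DMSO, and that of LUCAT1 had a peak in all 4 lists.
ENSG00000248884, chr5:67730112-67730411: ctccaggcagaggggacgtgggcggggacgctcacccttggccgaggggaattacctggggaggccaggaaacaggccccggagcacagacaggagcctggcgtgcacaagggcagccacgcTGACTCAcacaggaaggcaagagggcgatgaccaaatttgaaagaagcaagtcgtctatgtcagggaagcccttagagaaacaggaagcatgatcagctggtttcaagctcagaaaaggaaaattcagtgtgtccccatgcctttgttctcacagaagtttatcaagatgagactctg
VIM-AS1, chr10:17258275-17258574: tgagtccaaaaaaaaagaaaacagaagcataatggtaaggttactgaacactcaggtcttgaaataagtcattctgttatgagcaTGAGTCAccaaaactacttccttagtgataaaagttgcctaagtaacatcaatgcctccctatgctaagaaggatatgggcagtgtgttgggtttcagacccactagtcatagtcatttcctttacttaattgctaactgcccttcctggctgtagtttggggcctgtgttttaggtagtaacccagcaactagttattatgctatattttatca
ENSG00000284977, chr9:120525562-120525861: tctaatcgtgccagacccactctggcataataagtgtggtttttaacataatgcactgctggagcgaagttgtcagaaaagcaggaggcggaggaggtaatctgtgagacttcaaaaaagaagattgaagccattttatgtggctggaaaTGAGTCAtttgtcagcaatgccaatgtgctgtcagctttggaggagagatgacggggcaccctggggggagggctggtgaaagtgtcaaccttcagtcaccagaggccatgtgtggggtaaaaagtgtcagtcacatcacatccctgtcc
LUCAT1, chr5:90610136-90610435: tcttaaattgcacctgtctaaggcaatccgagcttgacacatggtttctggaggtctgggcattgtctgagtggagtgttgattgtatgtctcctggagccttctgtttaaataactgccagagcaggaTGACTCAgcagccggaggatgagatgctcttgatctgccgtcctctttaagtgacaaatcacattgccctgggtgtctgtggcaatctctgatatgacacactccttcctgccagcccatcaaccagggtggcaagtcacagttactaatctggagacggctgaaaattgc
The region of LINC02687 had a peak in the NS DMSO list alone and is shown with its CACCTG match in capitals.
LINC02687, chr11:45407439-45407738: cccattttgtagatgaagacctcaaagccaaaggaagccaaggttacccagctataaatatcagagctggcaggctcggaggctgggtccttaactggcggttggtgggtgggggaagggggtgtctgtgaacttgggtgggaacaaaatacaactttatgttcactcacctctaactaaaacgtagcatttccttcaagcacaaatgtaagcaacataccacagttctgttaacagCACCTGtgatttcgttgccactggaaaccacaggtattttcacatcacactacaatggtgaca
The last 3 sequences are GC-rich. For MALAT1, capitals mark 2 matches of the SP consensus GGGCGGGG or its complement. For MIR17HG, with 43 CpG, and MIR3142HG, with 18 CpG, each CpG is in capitals. MALAT1 and MIR17HG had a peak in all 4 lists, while the MIR3142HG region had a peak in every list but NS DMSO.
MALAT1, chr11:65264871-65265170: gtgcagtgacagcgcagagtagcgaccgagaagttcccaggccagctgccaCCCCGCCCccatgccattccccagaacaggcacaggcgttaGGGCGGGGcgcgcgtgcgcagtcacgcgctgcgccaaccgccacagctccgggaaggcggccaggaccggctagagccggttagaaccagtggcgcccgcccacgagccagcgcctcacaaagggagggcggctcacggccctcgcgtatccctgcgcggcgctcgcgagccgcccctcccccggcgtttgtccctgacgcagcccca
MIR17HG, chr13:92000392-92000691: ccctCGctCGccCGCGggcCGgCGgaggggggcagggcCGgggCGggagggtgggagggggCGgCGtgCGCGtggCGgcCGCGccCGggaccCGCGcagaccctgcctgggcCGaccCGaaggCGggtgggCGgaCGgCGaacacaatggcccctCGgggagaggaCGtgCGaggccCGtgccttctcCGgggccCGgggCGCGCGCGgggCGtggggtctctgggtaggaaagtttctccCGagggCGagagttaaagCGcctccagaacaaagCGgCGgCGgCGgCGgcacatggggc
MIR3142HG, chr5:159894729-159895028: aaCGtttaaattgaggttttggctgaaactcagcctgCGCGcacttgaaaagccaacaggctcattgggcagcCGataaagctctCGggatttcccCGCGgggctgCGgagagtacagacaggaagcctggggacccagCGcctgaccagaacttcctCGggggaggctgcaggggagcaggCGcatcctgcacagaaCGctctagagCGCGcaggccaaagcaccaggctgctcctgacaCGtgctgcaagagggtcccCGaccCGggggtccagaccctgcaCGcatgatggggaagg

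lncRNA promoter regions were found at a minority of lncRNA genes. Of 12940 lncRNA genes with a TSS more than 5 kb from every coding TSS, 1049 (8.11%) named a region. One region was found at 977 genes, 2 at 63 genes, and 3 or more at 9 genes. The regions had a median width of 305 bp, and their mid-points were a median of 206 bp from the lncRNA TSS and 30.9 kb from the nearest coding TSS. Mid-points lay before the TSS in 645 regions and at or after it in 489. Most regions, 901 (79.5%), lay outside the bodies of coding genes. Another 171 lay within a coding gene on the opposite strand, 58 lay within one on the same strand, and 4 lay where coding genes run on both strands. The mid-points of 475 regions were upstream of the gene, 333 were in an exon and 309 in an intron of the lncRNA, and 17 fell elsewhere. A TSS of a second lncRNA gene lay within 1 kb of 124 regions (10.9%), and 25 regions were also at the TSS of a transcribed unprocessed pseudogene, so the name of a region is not always the only candidate.

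The position rule set the members, and the values on either side of it were close. Of 34 members 5 to 6 kb from a coding TSS, 32.4% had a peak in all 4 lists, and of 40 regions left out at 4 to 5 kb, 40% did. At the other limit, 14.3% of 63 members at 900 to 1000 bp from the lncRNA TSS had a peak in all 4 lists, and 15.7% of 51 regions left out at 1000 to 1100 bp. The rule left out 2331 regions at lncRNA start sites because a coding TSS lay within 5 kb, and these were mostly of another kind: 1811 (77.7%) had the base composition of a CpG island and 1413 (60.6%) had a peak in all 4 lists.

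The lncRNA promoter regions had a peak in 524 cases (46.2%, 43.3–49.1) in the NS DMSO list, 618 (54.5%, 51.6–57.4) in the SW DMSO list, 688 (60.7%, 57.8–63.5) in the NS rottlerin list and 864 (76.2%, 73.6–78.6) in the SW rottlerin list. The shares of all merged regions were 46.5%, 49.3%, 58.4% and 74.5%, in the same order. Both series rose with the length of the list. Only for the SW DMSO list did the share of all regions fall outside the interval of the lncRNA promoter regions, on its low side. The fold enrichment over total input, the linear ratio that the deposited lists give for each peak, had similar medians, 3.94 in the NS DMSO list, 4.01 in SW DMSO, 4.00 in NS rottlerin and 4.07 in SW rottlerin. Where a list had several peaks in a region, the highest value was taken.

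A peak in all 4 lists was found at 325 lncRNA promoter regions (28.7%, 26.1–31.4), against 26.6% of all merged regions. This lay between coding promoter regions, with a mid-point within 1 kb of a coding TSS, of which 55.6% had a peak in all 4 lists, and distal regions, more than 5 kb from a coding TSS and 1 kb from any TSS, of which 14.8% did. No NS DMSO peak was found at 610 (53.8%, 50.9–56.7), against 53.5% of all merged regions. Both shares of the lncRNA promoter regions are thus near those of all regions. The largest groups after the 325 were 190 regions with a peak in the SW rottlerin list alone, 97 (8.55%) with a peak in every list but NS DMSO, 91 (8.02%) in SW DMSO and SW rottlerin alone, 91 in NS rottlerin alone, and 86 in both rottlerin lists alone. The NS DMSO list alone had a peak at 76 (6.7%), and the SW DMSO list alone at 36. Among all merged regions 7.08% had a peak in every list but NS DMSO, 6.26% in the 2 SW lists alone, and 7.83% in the NS DMSO list alone. The highest fold enrichment in any list had a median of 4.97 at regions in all 4 lists and medians of 3.44 to 3.57 at those in 1 list. The first is the highest of 4 values and the second a single value, so part of this gap is built into the measure.

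**Figure D1:**
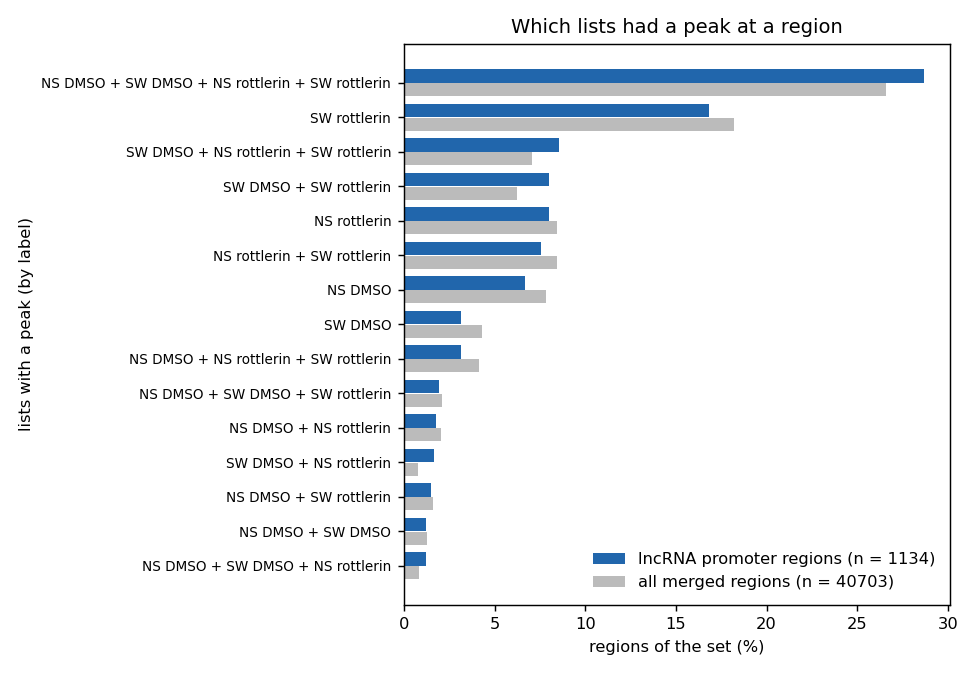
Share of lncRNA promoter regions (blue, n = 1134) and of all merged regions (grey, n = 40703) with each combination of lists that had a peak, in percent. The combination of all 4 lists is the most frequent in both sets, 28.7% and 26.6%, and the other bars of the 2 sets differ by less than 3 percentage points.

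Presence in all 4 lists varied with base composition. A window was called CpG-island-like when its GC content exceeded 50% and its ratio of observed to expected CpG exceeded 0.6. This was met by 277 lncRNA promoter regions (24.4%, 22–27), against 21.0% of all merged regions. It was met by 66.8% of coding promoter regions and by 2.09% of distal regions. Of the 277, 148 (53.4%, 47.5–59.2) had a peak in all 4 lists, and of the 857 others 177 (20.7%, 18.1–23.5) did. Over all merged regions the corresponding shares were 63.8% and 16.8%, so the dependence on class was not particular to lncRNA promoter regions. The shares were 67.2% and 32.1% at coding promoter regions, and 32.3% and 14.4% at distal regions. lncRNA promoter regions of either class thus lay between coding promoter and distal regions. A peak in the NS DMSO list alone was present at 7 of the 277 CpG-island-like regions and at 69 of the 857 others. Of all 40703 merged regions, 32171 were not CpG-island-like. Those with a peak in the NS DMSO list alone numbered 3187, and 3075 of these were not CpG-island-like. This split was thus not particular to lncRNA promoter regions.

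Presence was also set against distance from the start site, position in coding genes and width. Of all merged regions, 26.6% had a peak in all 4 lists, and these splits were not made for them. The share with a peak in all 4 lists was 32.6% of 374 regions at 0 to 100 bp from the TSS, 37.0% of 257 up to 250 bp and 26.0% of 219 up to 500 bp, and then 18.6% of 145 up to 750 bp and 17.3% of 139 up to 1000 bp. The CpG-island-like share fell over the same steps from 37.7% to 6.47%. Within the class that was not CpG-island-like, the shares in all 4 lists ranged from 16.7% to 26.7%, and within the CpG-island-like class they ranged from 61.0% of 77 regions in the second step to 22.2% of 9 in the last. Of regions within coding genes, 29 of the 171 antisense and 9 of the 58 sense regions had a peak in all 4 lists, and of the 901 outside coding genes 287 did. CpG-island-like windows made up 8.77%, 15.5% and 28.1% of these sets. Width ran with presence as well, since 22 of 399 regions of up to 250 bp and 52 of 76 regions over 1000 bp had a peak in all 4 lists. Merged regions widen with each list that contributes a peak, so this last relation is partly built into the merging.

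**Figure D2:**
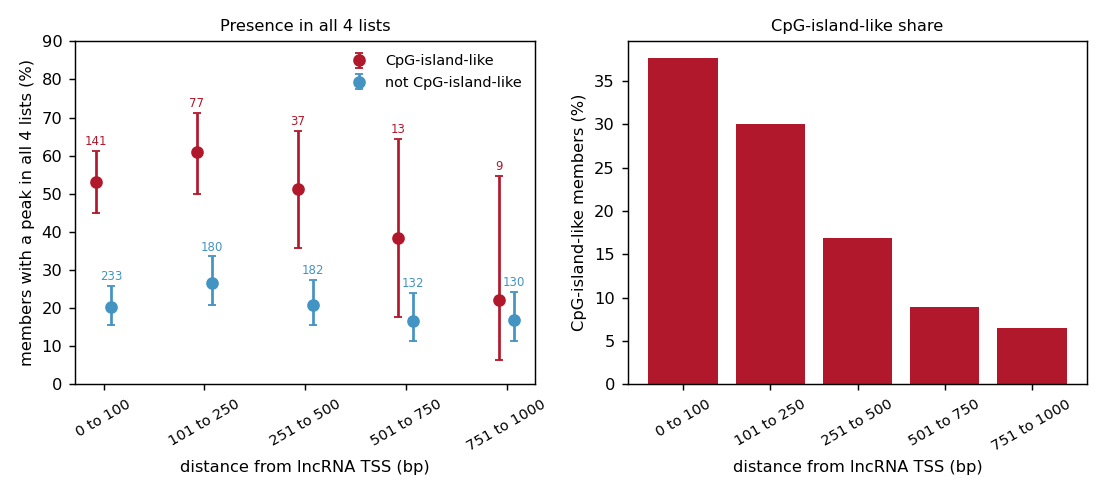
Left, share of lncRNA promoter regions with a peak in all 4 lists by distance of the mid-point from the lncRNA TSS, for CpG-island-like (red) and other windows (blue), with 95% Wilson intervals and the number of regions above each. Right, share of regions that were CpG-island-like, which falls from 37.7% to 6.47%.

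By symbol, 618 regions belonged to genes with an identifier only, of which 159 had a peak in all 4 lists, 253 to LINC genes (67), 8.91% to antisense genes with symbols in -AS (34), 14 to divergent transcripts with symbols in -DT (2) and 113 to genes with other given names (44). Of all merged regions, 26.6% had a peak in all 4 lists. The SNHG genes numbered 28 in the annotation, of which 13 had 1 region each, 8 had a region that was near a coding TSS or was named by another lncRNA, and 7 had none. These genes host small nucleolar RNAs. Of the 13 regions, 9 had a peak in all 4 lists and 11 were CpG-island-like, beside 26.6% of all merged regions and 53.4% of the CpG-island-like lncRNA promoter regions in all 4 lists. SNHG16 had fold enrichments of 5.14, 4.08, 4.88 and 4.85 in the NS DMSO, SW DMSO, NS rottlerin and SW rottlerin lists, an order kept for all values below. SNHG15 had 4.43, 5.2, 4.68 and 4.44, and SNHG8 had 4.73, 4.24, 4.70 and 4.34. None of these 3 regions differed by as much as 1.5-fold between any of the lists compared below. SNHG17, at 3.15, 2.68 and 2.86, lacked a peak in the NS DMSO list alone, and SNHG12 had peaks of 2.88 and 2.93 in the SW DMSO and NS rottlerin lists alone.

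Host genes of microRNAs were taken next. Of 81 genes with symbols of the form MIR...HG, 15 had 19 regions, 10 had a region that was near a coding TSS or was named by another lncRNA, and 56 had none. All 4 lists had a peak at 8 of the 19 regions, beside the same 26.6% of all merged regions, and 10 were CpG-island-like. MIR17HG, the host of the miR-17-92 cluster, which promotes lymphocyte proliferation, had fold enrichments of 5.42, 3.96, 4.89 and 3.79 at chr13:91999739-92001345. Its values were lower in both SW lists than in both NS lists. MIR181A1HG, the host of miR-181a, which tunes T cell receptor signalling, lies downstream of PTPRC and reached 6.19, 7.05, 5.76 and 7.58 at chr1:198905566-198907012, with both SW lists above both NS lists. MIR223HG, whose microRNA is best known from myeloid cells, nevertheless had 5.01, 3.76, 5.33 and 4.64 at chrX:65234575-65235980 in these T cells. MIR210HG, the host of the hypoxia-induced miR-210, had 5.25, 5.44, 6.38 and 5.91, and MIRLET7A1HG, the host of let-7 microRNAs, had 5.37, 4.46, 5.12 and 5.74 at its CpG-island-like region.

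MIR3142HG hosts miR-146a, a microRNA that is induced by NF-kB and restrains it. Both of its regions lacked an NS DMSO peak and had a peak in each of the other lists. The region at chr5:159893883-159895875, whose centre is printed above, had 3.67, 4.87 and 4.55 in the SW DMSO, NS rottlerin and SW rottlerin lists. The other, at chr5:159865452-159866443, had 3.07, 3.75 and 4.01. The only further MIR...HG region with this pattern was 1 of the 2 of MIR762HG, at 4.17, 4.70 and 4.31. Neither central window of MIR3142HG contained an AP1 match.

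The list of 31 lncRNAs known from T cells or from nuclear functions was covered in part. Of these, 15 genes had 28 regions, 8 had no region within 1 kb of a TSS (CYTOR, IFNG-AS1, LINC01871, MEG3, PACERR, TCL6, TH2LCRR and THRIL), 5 had a region that was near a coding TSS or was named by another lncRNA (GAS5, GATA3-AS1, LEF1-AS1, NKILA and SATB1-AS1), and 3 were not annotated as lncRNA genes under that symbol (MORRBID, NRON and TUG1). A peak in all 4 lists was found at 12 of the 28 regions, no NS DMSO peak at 8, and an NS DMSO peak alone at 3. Among all merged regions these shares were 26.6%, 53.5% and 7.83%.

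The regions named by MALAT1 and NEAT1, which neighbour each other on chromosome 11, differed. The promoter region of MALAT1 at chr11:65264719-65265322 had fold enrichments of 4.91, 5.68, 6.84 and 6.32, with the lowest value in the NS DMSO list. A second region of MALAT1 had 4.28, 4.26, 5.71 and 4.62, and another was called only in the SW rottlerin list, at 3.00. NEAT1 named a region in an exon, before a start site inside the gene. This region had no NS DMSO peak at chr11:65192659-65193009, and 5.57, 4.14 and 5.88 in the other lists. A second region within 1 kb of a NEAT1 start site was near a coding TSS or named by another lncRNA. It is not described here. NEAT1 was the only region of the list of 31 with a peak in every list but NS DMSO.

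LUCAT1, a stress-responsive lncRNA, had 2 regions with a peak in all 4 lists and AP1 matches in both. At chr5:90610069-90610503 the values were 4.33, 4.87, 5.18 and 6.5, lowest for NS DMSO and highest for SW rottlerin, and at chr5:90607566-90607812 they were 4.07, 4.79, 3.55 and 4.33. CASC15, a long gene next to SOX4, had 4 regions with different patterns. The one at chr6:21883793-21884498 fell from 5.01 in the NS DMSO list to 3.15, 3.88 and 3.54 in the others, while the one at chr6:22063024-22063675 stayed between 4.10 and 4.66 in all lists. Another CASC15 region had no SW DMSO peak, and the last was called in the NS rottlerin list alone. DLEU1 and DLEU2 lie in the region often deleted in chronic lymphocytic leukaemia. DLEU1 had 6.86, 6.36, 5.32 and 6.5 at chr13:50656067-50657238, the highest value of the list of 31. A second DLEU1 region was called in the NS DMSO (2.72) and SW rottlerin (4.43) lists alone. DLEU2, the host of miR-15a and miR-16-1, had 4.07, 3.47, 2.99 and 3.98 at the 1 region it named, of 3 within 1 kb of its start sites. The others were near a coding TSS or named by another lncRNA. PVT1, downstream of MYC, had 4.72, 4.46, 3.61 and 3.81, and KCNQ1OT1, the imprinted antisense transcript of KCNQ1, had 2.65, 3.68, 3.47 and 3.91. The PVT1 region, which lies in an intron and was the only one at its start sites, was thus higher in both DMSO lists. KCNQ1OT1 was lowest for NS DMSO. LINC00299 had 4 regions, none with a peak in the SW DMSO list. LINC-PINT, a p53-induced transcript, named 1 of the 3 regions within 1 kb of its start sites. That region lies in an intron and was called only in the SW rottlerin list (3.75). The others were near a coding TSS or named by another lncRNA. FIRRE, an X-linked lncRNA of nuclear organization, had 1 region, in an intron, called only in the NS rottlerin list (3.74).

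Genes with 3 or more regions showed how start sites of 1 gene can differ. The 9 such genes held 31 regions, of which 10 had a peak in all 4 lists and 12 no NS DMSO peak. Among all merged regions these shares were 26.6% and 53.5%. LINC01588 on chromosome 14 had 5 regions and only 1 of these, at 3.25, 4.49, 4.02 and 4.31, was in all lists. Its region with an AP1 match had no NS DMSO peak and 4.94, 4.63 and 4.45 in the others. Another LINC01588 region was called under both DMSO labels alone, at 4.90 and 4.43. ENSG00000282885 had a CpG-island-like region at 5.63, 5.59, 5.31 and 6.03, and a second region was called in the SW DMSO list alone, at 6.30. LINC00426 had 3 regions, all with peaks in both NS lists, and only 1 with a peak in the SW DMSO list. LINC03002 had 1 region in all lists, at 4.45, 4.40, 5.00 and 5.07, and 2 in the NS rottlerin list alone.

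**Figure D3:**
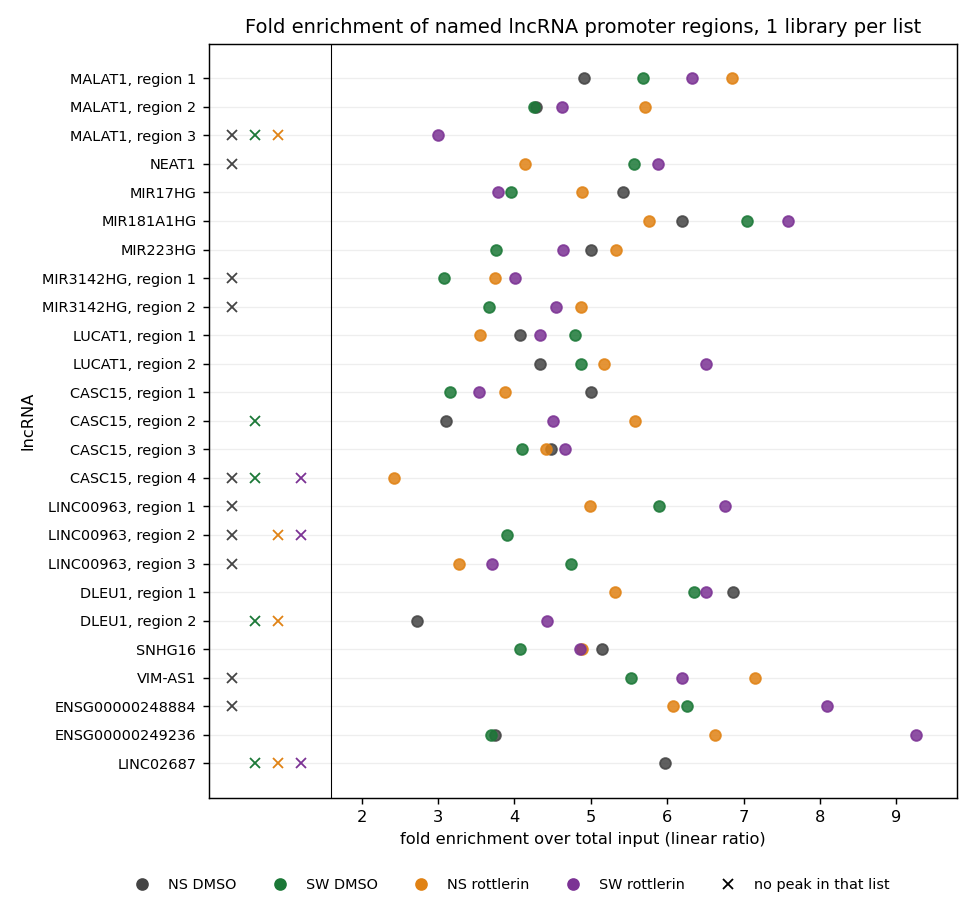
Fold enrichment over total input (linear ratio) of named lncRNA promoter regions in each list, with 1 library per point and crosses, left of the line, for lists without a peak. The regions shown for NEAT1, MIR3142HG, LINC00963, VIM-AS1 and ENSG00000248884 have no NS DMSO peak. That of LINC02687 has only an NS DMSO peak, at 5.97, and that of ENSG00000249236 reaches 9.26 in the SW rottlerin list.

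The highest fold enrichment of all was found at ENSG00000249236, 57.8 kb from the TSS of ANKRD55, with 3.74, 3.70, 6.63 and 9.26 at chr5:55354655-55355221. Its 2 rottlerin lists lay above both DMSO lists. ENSG00000260613, near BRD1, had 6.25, 5.26, 7.88 and 6.46, and ENSG00000286586, near MORN3, had 7.34, 6.99, 6.86 and 7.83. The regions of ENSG00000260613 and ENSG00000286586 were above 5 in every list.

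Of the 97 regions with a peak in every list but NS DMSO, ENSG00000248884 had the highest value. This region, 141 kb from the TSS of PIK3R1, the regulatory subunit of phosphoinositide 3-kinase, had 6.26, 6.08 and 8.10 in the SW DMSO, NS rottlerin and SW rottlerin lists. Next were ENSG00000286667, with 5.14, 4.19 and 7.24, VIM-AS1, a transcript antisense to the vimentin locus, with 5.52, 7.15 and 6.19, ENSG00000248656, with 4.10, 4.91 and 6.90, and ENSG00000284977, with 6.48, 5.77 and 6.86. An AP1 match was present in the central window of 4 of these 5, all but ENSG00000248656, beside 39.2% of the 97. Among all merged regions with this pattern that were not CpG-island-like, 42.0% had a match. LINC00963 had 3 regions, and none had an NS DMSO peak. Its promoter at chr9:132250577-132251167, which is CpG-island-like and contains an AP1 match, had 5.89, 4.99 and 6.75, and another had 4.73, 3.27 and 3.70.

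Among the 76 regions with an NS DMSO peak alone, the highest values were 6 at ENSG00000228005, 5.97 at LINC02687, 5.69 at ENSG00000291147, 5.67 at ENSG00000230172 and 5.43 at CASTOR3P. These exceed the median of the 76, which was 3.55. CACCTG was present at LINC02687 and ENSG00000291147, and AP1 at none of the 5. From the list of 31, a region each of CCDC26 (4.62), LINC00299 (4.63) and MIAT (3.67) was also called in the NS DMSO list alone. All 3 windows contained CACCTG, beside 48.7% of the 76. Among all merged regions in NS DMSO alone that were not CpG-island-like, 39.8% contained it.

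SW cells were first compared with NS cells under the DMSO labels. A peak in the SW DMSO list and none in the NS DMSO list was present at 243 lncRNA promoter regions (21.4%, 19.1–23.9), against 18.4% of all merged regions. The reverse held for 149 (13.1%, 11.3–15.2), against 15.6%. Both lists had a peak at 375, where the median ratio of SW DMSO to NS DMSO fold enrichment was 0.978. Over all merged regions with both peaks it was 0.980. The ratio reached 1.5 upward at 10 of the 375, against 1.67% of all regions with both peaks, and downward at 5, against 2.18%. The 3 highest ratios among regions present in all lists were 1.77 at ENSG00000253842, which rose from 3.39 to 6.01, 1.75 at ENSG00000289525, which rose from 4.15 to 7.28, and 1.58 at a region of LINC00649, from 4.19 to 6.61. The lowest were 0.569 at ENSG00000288763, from 4.93 to 2.81, 0.627 at ENSG00000286664, from 4.93 to 3.09, and 0.63 at CASC15. The highest values called in the SW DMSO list alone were 6.30 at ENSG00000282885 and 5.08 at ENSG00000261392, whose window contained AP1. These are single libraries, so no error can be given for a ratio.

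Under the NS labels, the rottlerin list was compared with the DMSO list. A peak in the NS rottlerin list and none in NS DMSO was present at 293 regions (25.8%, 23.4–28.5), against 24.7% of all merged regions, and the reverse held for 129 (11.4%, 9.66–13.4), against 12.8%. At the 395 regions with both, the median ratio was 1.04, the same as over all merged regions with both. Of the 395, 17 reached 1.5 upward against a background of 3.19%, and 8 downward against 1.38%. Among regions present in all 4 lists, ENSG00000249236 had the highest ratio, 1.77. ENSG00000259242, within PBX4, followed at 1.70, from 3.02 to 5.12, and ENSG00000267560, antisense within RELCH, at 1.68, from 3.60 to 6.05. The lowest ratio among regions in all 4 lists was again at ENSG00000288763, 0.568, followed by ENSG00000286664 at 0.595 and ENSG00000225632, within SSBP3, at 0.61. In the NS rottlerin list alone, the highest values were 5.38 at THUMPD3-AS1 and 5.29 at ENSG00000278730. With the same number of peaks kept in every list, 21.4% of regions had a peak in the NS rottlerin list only and 18% in the NS DMSO list only. The same NS DMSO library is the divisor of this ratio and of the one before it, so a value that is high or low in that library enters both.

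Under the SW labels, the rottlerin list had a peak that the DMSO list lacked at 329 regions (29.0%, 26.4–31.7), against 32.4% of all merged regions. The reverse held for 83 (7.32%, 5.94–8.98), against 7.18%. At the 535 regions with both, the median ratio was 1.08, the same as over all merged regions with both. The ratio reached 1.5 upward at 18, against 3.75%, and downward at 1, against 0.344%. Among regions present in all 4 lists, ENSG00000249236 again led with a ratio of 2.5, from 3.70 to 9.26, followed by ENSG00000228719 at 1.81, from 3.79 to 6.84, and ENSG00000267560 at 1.77, from 3.41 to 6.03. The single region past the downward limit was ENSG00000260177, 30.1 kb from SLC7A5, at 0.588, from 4.83 to 2.84. In the SW rottlerin list alone, the highest values were 5.52 at LINC02543 and 5.51 at ENSG00000288777. With the same number of peaks kept in every list, the direction of this comparison turned, with 14.9% in the rottlerin list only and 16.7% in the DMSO list only.

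SW cells were also compared with NS cells under the rottlerin labels. A peak in the SW rottlerin list only was present at 320 regions (28.2%, 25.7–30.9), against 28.2% of all merged regions, and in the NS rottlerin list only at 144 (12.7%, 10.9–14.8), against 12.1%. At the 544 regions with both, the median ratio was 1.04, against 1.03 over all merged regions with both. Of the 544, 15 reached 1.5 upward against 2.6%, and 3 downward against 0.987%. Among regions present in all 4 lists, the highest ratios were 1.82 at ENSG00000291136, from 3.55 to 6.45, 1.63 at ENSG00000291107, near CLEC2D, from 2.87 to 4.67, and 1.57 at ENSG00000253190. The lowest in that set were 0.665 at ENSG00000286511, from 6.71 to 4.46, 0.708 at ENSG00000251660 and 0.721 at PCED1B-AS1. With the same number of peaks kept in every list, the shares were 18.1% and 16.9%. The excess in the SW rottlerin list was then smaller, and the cause was not tested.

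**Figure D4:**
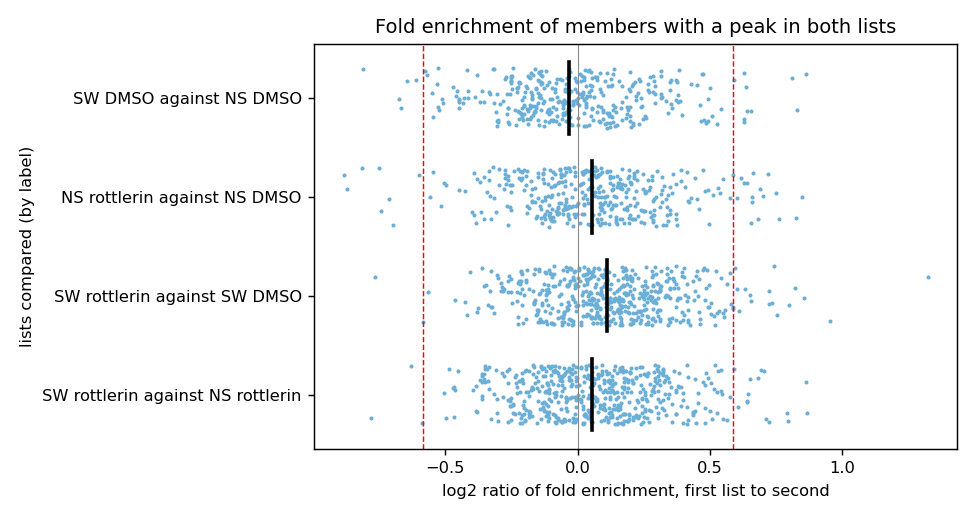
Log2 ratio of fold enrichment, first list to second, for each lncRNA promoter region with a peak in both lists of a comparison (points, spread vertically at random). Black bars are medians, which correspond to ratios of 0.978, 1.04, 1.08 and 1.04 from top to bottom, and dashed lines mark 1.5-fold either way.

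Across the 325 regions present in all 4 lists, fold enrichments of any 2 lists were correlated, with Spearman's rho from 0.648 to 0.765 over regions. This is a description, since all lists share the total input and regions are not replicates. The highest value was between the NS rottlerin and SW rottlerin lists, and the next, 0.752, between the SW DMSO and SW rottlerin lists.

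The sequence of the regions varied with the lists that called them. Of 16 consensus sequences searched on both strands of the central 300 bp, AP1 was present in 223 lncRNA promoter regions (19.7%, 17.5–22.1), against 17.9% of all merged regions, 7.45% of coding promoter regions and 22.5% of distal regions. By lists, AP1 was found in 38 of the 97 regions with a peak in every list but NS DMSO (39.2%, 30.1–49.1) and in 39 of the 91 with a peak in SW DMSO and SW rottlerin alone (42.9%, 33.2–53.1). It was found in 37 of the 325 in all 4 lists (11.4%, 8.37–15.3) and in 3 of the 76 in NS DMSO alone (3.95%, 1.35–11). Regions called in the SW DMSO list and not in the NS DMSO list thus contained AP1 in 37.9% of 243 cases, and those with the reverse in 4.7% of 149. All merged regions had 37.1% and 6.39% in the same split, so this pattern was not particular to lncRNA promoters. With a peak in NS rottlerin and none in NS DMSO, AP1 was present in 28.3% of 293 (23.5–33.7), against 22.6% of all merged regions. With the reverse, it was present in 9.3% of 129 (5.4–15.6), against 8.2%.

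The E-box CACCTG had another distribution. It was present in 276 lncRNA promoter regions (24.3%, 21.9–26.9), against 21.4% of all merged regions. Of the 76 regions with an NS DMSO peak alone, 37 contained it (48.7%, 37.8–59.7), against 78 of the 325 in all 4 lists (24.0%, 19.7–28.9) and 5 of the 86 in both rottlerin lists alone (5.81%, 2.51–12.9). In all merged regions the corresponding shares were 39.8%, 20% and 15.3%. Since CpG-island-like windows seldom contain AP1 (7.22% of 277), the shares were also taken over the other windows. AP1 was then present in 42.0% of 81 regions with a peak in every list but NS DMSO, 14.7% of 177 in all 4 lists and 4.35% of 69 in NS DMSO alone, and CACCTG in 50.7% of the 69 (39.2–62.2). Over all merged regions outside the CpG-island-like class, AP1 was present in 42.0%, 16.2% and 6.54% of these groups. CACCTG was present in 39.8% of those in NS DMSO alone. The AP1 shares of these groups and the high CACCTG share in NS DMSO alone were thus not particular to lncRNA promoters. For both rottlerin lists alone, the CACCTG share of all merged regions, 15.3%, lay above the interval of the lncRNA promoter regions. Outside the CpG-island-like class it was 14.7%, against 7.04% (3.045–15.45) of lncRNA promoter regions, and so within the interval. This difference was not tested. A match is a run of letters and not evidence of binding.

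**Figure D5:**
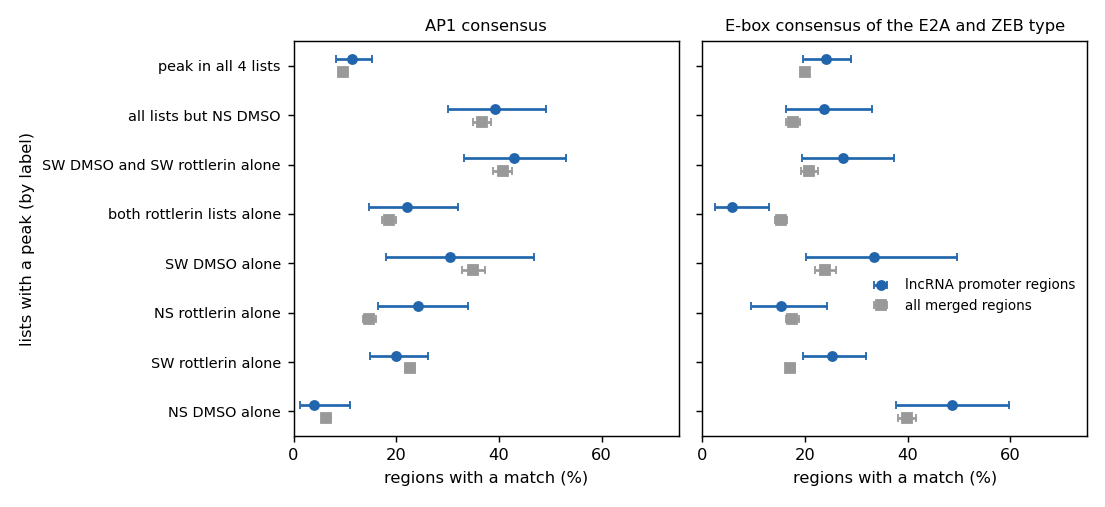
Share of regions whose central 300 bp contained the AP1 consensus (left) or the E-box CACCTG (right), by the lists with a peak, for lncRNA promoter regions (blue circles) and all merged regions (grey squares), with 95% Wilson intervals. For lncRNA promoter regions AP1 ranges from 3.95% for NS DMSO alone to 42.9% for the 2 SW lists alone, and the E-box from 5.81% to 48.7%.

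Other consensus sequences placed the lncRNA promoter regions between coding promoters and distal regions. The SP consensus GGGCGGGG was present in 10.7%, against 30.9% of coding promoter and 2.2% of distal regions, with 10.7% of all merged regions. The ETS consensus CCGGAAG was present in 7.5%, against 15.3% and 2.08%, with 5.94% of all. The RUNX consensus TGTGGT was present in 26.8%, against 15.6% and 40.5%, with 32.8% of all, and AGATAA, the consensus of GATA factors, in 18.1%, against 8.22% and 26.9%, with 21.0% of all. The NFAT consensus TGGAAA was present in 25.8%, against 18.3% and 32.2%, with 28.0% of all. The TATA box TATAAA was present in 10.9%, against 6.69% and 20%, with 15.7% of all. The E-box CAGCTG, at 22.3%, was outside this range, above 16.2% and 17.1%, with 17.1% of all. Differences between these sets were not tested.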

How the data were processed

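FAIRE-seq had been performed on Jurkat cells, and broad peaks had been called for 1 library per list against total input DNA with MACS2 on hg19, which is GRCh37. The submitters' notes also name cutadapt, Bowtie2, Picard and HTSeq, without versions. In the lists deposited by the authors, each peak carries a score, a fold enrichment over total input (a linear ratio), and a −log10 p-value and −log10 q-value. The score was 10 times the −log10 q-value, and the fold enrichment is the level used throughout. Read totals are not in the peak lists, so depth is unknown.

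Peaks on chromosomes 1 to 22, X and Y were merged with pandas 2.3.3 and numpy 2.4.6, start sites were taken from every transcript of GENCODE release 44 on GRCh37, and sequences were read with pysam 0.24.0 from an index made by samtools 1.23.1. A list had a peak at a region where any of its peaks overlapped it. Base composition and 16 consensus sequences were taken over the central 300 bp. Besides those given above, the consensus sequences were CRE TGACGTCA, NFkB GGANTTTCC, GTGGGCG of EGR factors, CTCF AGNGGGCGC, NRF1 GCGCATGCG, YY1 AAGATGGC, and for the factor NF-Y the letters CCAAT. Groups followed the labels. With 1 library per group no test was made, and a change of at least 1.5-fold was counted beside that of all merged regions. The counting steps were checked on simulated data.

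Named regions were those of the list of 31 lncRNAs, of MIR...HG and SNHG genes, and of genes with 3 or more regions, the 5 with the highest fold enrichment in any list, in all lists but NS DMSO and in NS DMSO alone, the 2 highest in each other list alone, and the 3 highest and 3 lowest ratios of each comparison among regions in all 4 lists. Names other than these are neighbouring coding genes. One region that this rule names is not reported here. The regions and lists were chosen with earlier results of these data known. Alternatives changed the start sites, the windows, the fold, the peak threshold, the number of peaks and the overlap.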

Additional observations from a re-analysis of the deposited data

Results flagged for a closer look

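The median ratio of SW to NS fold enrichment lay below 1 under the DMSO labels (0.978) and above 1 under the rottlerin labels (1.04). Over all merged regions these medians were 0.980 and 1.03, so the opposite directions were not particular to lncRNA promoter regions. At ENSG00000286664 on chromosome 4, the SW to NS ratio was 0.627 under the DMSO labels and 1.20 under the rottlerin labels. At ENSG00000253190 on chromosome 8, the ratios were 0.874 and 1.57. In each case the pairs of libraries moved in opposite directions. Each label is 1 library, so the difference between these effects was not tested.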

How the results depend on the processing

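No paired analysis was possible because the labels give no replicate numbers and each group is 1 library. For the same reason no library could be left out. Of 265 values under the alternatives, 177 moved by less than their counting interval or 1.5 times. Below, "gained" means a peak in the first list of a comparison only and "lost" one in the second only, in percent of regions.

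Keeping the 18977 strongest peaks of each list turned SW rottlerin against SW DMSO, with 14.9% gained and 16.7% lost. No NS DMSO peak was then found at 43.6%, SW DMSO against NS DMSO lost 17.3%, NS rottlerin against NS DMSO gained 21.4% and lost 18%, and SW rottlerin against NS rottlerin gained 18.1% and lost 16.9%. Median ratios became 1.11 for SW rottlerin to SW DMSO and 1.07 for SW rottlerin to NS rottlerin. Regions past 1.5-fold downward numbered 3, 5 and 0 in the first 3 comparisons of the report, and upward 6 in the last.

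With the higher-scoring 50% of each list there were 590 regions, 31.7% CpG-island-like. SW rottlerin gained 32.4% against SW DMSO and lost 10% against NS rottlerin, 3, 1, 1 and 1 regions passed 1.5-fold upward in the 4 comparisons, and 0, 1 and 0 downward in the first 3.

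With peaks required to cover 50% of a region, 20.1% were in all lists, 60% had no NS DMSO peak, and losses were 15.5%, 13.5%, 9.08% and 15.3% in the 4 comparisons, with gains of 32% in both comparisons of the SW rottlerin list.

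With the start of the gene record only, 33.6% were in all lists, 50.6% had no NS DMSO peak, 36.1% were CpG-island-like and 15.5% contained AP1. SW DMSO gained 18.9% over NS DMSO with 2 regions past the fold downward, and SW rottlerin against SW DMSO lost 5.62%. Within 500 bp of a TSS, 32.2% were in all lists, 30% were CpG-island-like, NS rottlerin against NS DMSO lost 9.18%, and 6 and 9 regions rose past the fold in the first and last comparisons.

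At a log2 ratio of 0.32, 39, 53, 94 and 78 regions passed upward and 34, 29, 17 and 31 downward. At 2-fold, 1 passed upward, in SW rottlerin against SW DMSO, and 0 in every other direction and comparison. In a central window of 500 bp, AP1 was present in 25.4%.

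With only the lists labelled DMSO, an alternative chosen after seeing the data, 48.9% of 769 regions were in both, 31.6% were gained and had no NS DMSO peak, 19.5% were lost, and 28% were CpG-island-like. The equal number of peaks kept only the higher-scoring peaks of the longer lists and left 929 regions, so list length was not changed alone. The cause of these shifts, the turned comparison included, was not tested. Depth is unknown, so a missing peak sets no upper limit on accessibility.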
